A study of Saccharomyces cerevisiae with 30 samples.

Results

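The mature 40S ribosomal subunit of budding yeast was compared with the pre-40S particle of wild-type cells by the DMS reactivity of its 18S rRNA. The comparison used 3 DMS-treated replicates of mature 40S and 5 of WT pre-40S, each with its own untreated library, which makes 16 of the 30 samples of the series. Members were the A and C of 18S whose effective depth (reads usable for calling a mutation) reached 1000 in all 16 libraries. Of 831 A and C, 776 met this rule (440 A and 336 C) and 55 did not. The member nearest to the limit, A253, had a lowest depth of 1003, and C190, just outside, had 999. The excluded nucleotides included A1189, C1190 and C1192, beside the modified U1191 in h31, and the dimethylated A1781 and A1782 of h45.

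The series compared ribosomal RNA structure between pre-40S intermediates, using dimethyl sulfate mutational profiling (DMS-MaPseq). Cells were grown in YPD, a rich medium, to mid-log phase. WT pre-40S came from wild-type cells through a TAP tag on the assembly kinase Rio2, so the particles were those that still carried Rio2, while the labels name no tag or purification for mature 40S. Treated particles received 1% DMS for 5 min at 30 °C, and the replicates were biological per the series design.

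DMS methylates A and C whose pairing face is open, and reverse transcriptase reads such a base as a mutation, so the mutation rate above that of untreated RNA reports an open base. Late pre-40S particles carry assembly factors where mature subunits bind mRNA, tRNA and initiation factors: Enp1 and Ltv1 sit on the beak, Rio2, Tsr1 and Dim1 on the subunit interface, and Nob1 and Pno1 on the platform. Nob1 cleaves the ITS1 spacer from the 3′ end of 18S late in maturation. Helices are numbered h1 to h45 from the 5′ end, h28 is the neck between head and body, and h44 is the long helix that holds the decoding site.

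The stretches below hold most of the nucleotides that changed, with those in capitals, so that the values can be read on the sequence. They were read 5′ to 3′ from the sequence column of the deposited profiles, the RNA strand of the rDNA on chromosome XII, and each reaches 8 bases beyond the outer capital. In the h31 stretch the capitals mark bases of h31 and the strand after it that were below the filter on signal described later. These bases were lower in mature 40S when no such filter was used. C1209 and A1211 of h32, which also differed then, are not marked, and A1183 of h31, which was higher, lies outside the stretch.
h18 loop (C565): gucuggugCcagcagcc
h24 tip (A998, A1003): cgaagaugAucagAuaccgucg
h26 (C1075): ccacucggCaccuuacg
h28, 5′ strand (A1147): aggaauugAcggaaggg
h31 loop and the strand after it: uuugacucAACACggggAaAcucaccag
link of h32 to h33 (A1217, A1219): ccagguccAgAcacaauaa
h33 tip (C1246): auugagagCucuuucuu
h37 to h38 (A1313, A1331): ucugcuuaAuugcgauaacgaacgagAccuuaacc
h28, 3′ strand, to h44 (C1632, A1633, A1635, C1639, C1640): ccuuuguaCAcAccgCCcgucgcua

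The particles differed as their labels say. The depth over ITS1 divided by that over 18S was 0.595 ± 0.165 in WT pre-40S (SD, n = 5) and 0.00550 ± 0.00318 in mature 40S (SD, n = 3), without overlap (two-sided exact permutation p = 0.0357, the smallest this design allows). U1191, which carries a bulky modification in mature 18S, was misread in 2.05% to 4.26% of untreated reads from WT pre-40S and 76.8% to 83.3% of those from mature 40S. Median effective depth over 18S ran from 5349 to 18685 in the DMS libraries and from 3976 to 13261 in the untreated ones. The libraries fell into sets by their untreated mutation profile: WT replicates 4 and 5 and mature 40S replicates 2 and 3 correlated at 0.869 to 0.926, WT replicates 2 and 3 at 0.845, and all other pairs at 0.286 to 0.626. In WT replicate 1 the mean mutation rate was lower with DMS than without, by 0.357 percentage points at A and 0.408 at C, whereas the other 7 replicates had higher rates with DMS. At A998 and C1632 the library labelled as treated had the higher rate in that replicate too (4.65% against 0.492%, and 3.54% against 1.47%). Whether its libraries were exchanged or its treatment was weak was not tested, and every reactivity of WT replicate 1 rests on its labels. The calls are therefore also counted within the first set, which leaves WT replicate 1 out.

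Of the 776 members, 92 were tested, because DMS raised their mutation rate, averaged over the 8 pairs, to 2 times the untreated average or more, and 684 lay below that signal. A nucleotide could pass this filter through 1 of the groups, so the counts describe the 92 and not 18S as a whole. The average holds 5 pairs of WT pre-40S and 3 of mature 40S, so bases reactive in pre-40S alone pass more easily. The numbers of lower and higher calls therefore do not weigh falls against rises over 18S. In edgeR's quasi-likelihood test 18 of the 92 (19.6%) differed at an adjusted p under 0.05: 12 (13%) were lower in mature 40S and 6 (6.52%) were higher. The head, counted with the neck h28, held 8 of the 18, with 3 higher and 5 lower among 21 tested. Of its 5 lower calls 3 lay in h28, where 4 nucleotides were tested. The central domain had 2 higher and 2 lower of 27, the 5′ domain 0 higher and 2 lower of 32, and the 3′ minor domain 1 higher and 3 lower of 12. The median log2 change in DMS rate was -0.27 in the head, 0.13 in the 5′ domain, 0.11 in the central domain and 0.03 in the 3′ minor domain, beside 0.06 over all 92. The 18 calls comprised 12 of 62 tested A and 6 of 30 tested C. The other 74 nucleotides had log2 changes from -0.72 to 0.72, 50 of them positive. All 18 kept their sign and their call among the 92 within the first library set, and all 18 were also called without WT replicate 1, where 24 nucleotides passed. Both fits kept the 92, which had been chosen with WT replicate 1 included.

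**Figure D1:**
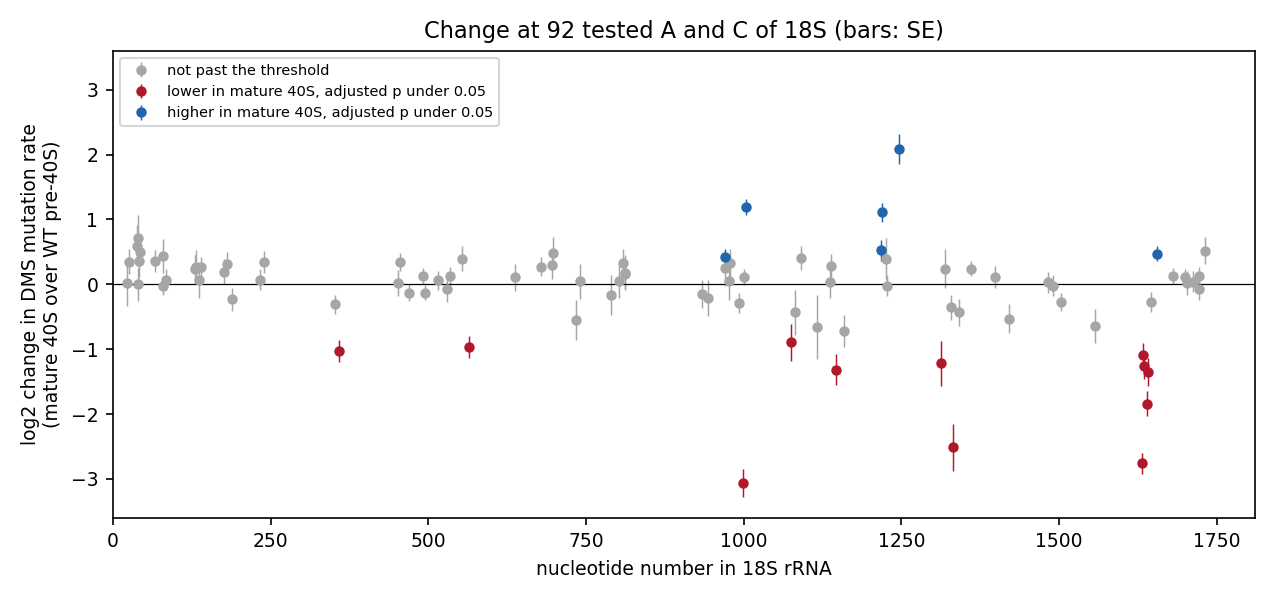
Log2 change in DMS mutation rate, mature 40S over WT pre-40S (vertical axis, bars are SE), at the 92 tested nucleotides by their number in 18S (horizontal axis). The calls lower in mature 40S include 5 from C1632 to C1640, and the others stand at single places before them, and the largest rise is C1246.

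Reactivity here is the DMS rate minus the untreated rate of the same replicate, divided by the library scale and by a constant common to all libraries. It did not overlap between the groups at 29 of the 92 nucleotides (31.5%), and at 14 of the 18 calls. The overlapping calls were C1075, A1313, A1331 and A1635.

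Among the 92 tested nucleotides, the neck and its junction with h44 held the densest group of lower values in mature 40S. In h28, which the counts of the head include, 3 of 4 tested nucleotides fell. The link from h28 to h44 gave 1 of 1, and in h44 2 of 11 fell, both at its base. The median log2 change of the 4 in h28 was -1.20, beside the 0.06 over all 92. Of all 92, 12 (13%) fell. Only 4 of the 22 members in h28 were tested. A base reactive in WT pre-40S alone could pass the signal filter, and for such a base a fall is favoured. The share in h28 therefore does not give the density of falls over the whole helix.

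C1632 lies in the 3′ strand of h28, opposite G1146. Its reactivity was 2.82, 4.63, 4.20, 4.21 and 3.42 in WT pre-40S replicates 1 to 5, and 0.257, 0.228 and 0.226 in mature 40S replicates 1 to 3. Every pre-40S replicate lay far above every mature one. The DMS rate was 4.70% ± 1.30 (SD, n = 5) in WT pre-40S and 0.733% ± 0.083 (SD, n = 3) in mature 40S, while untreated RNA gave 0.905% and 0.492%. This is a log2 change of -2.76 (SE 0.166; edgeR adjusted p = 1.87e-08), and -2.72 within the first set. The mature rate thus lay close to its untreated rate, which limits how large a fold can be seen.

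A1633, the next base, can pair with U1145. Its reactivity was 2.0, 1.05, 1.04, 1.05 and 0.794 in WT pre-40S, and 0.197, 0.472 and 0.203 in mature 40S. The groups were apart, with WT replicate 1 highest. A1633 fell by a log2 change of -1.09 (SE 0.189; edgeR adjusted p = 0.000453), but the adjusted p was 0.153 in the model that also fits the untreated libraries and 0.0611 without a library scale. When the signal filter was redone on the first set, A1633 fell short of it and was not tested.

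A1147, on the other strand of h28, is opposite U1630. It had reactivities of 0.826, 1.31, 0.873, 1.00 and 1.03 in WT pre-40S, and of 0.341, 0.141 and -0.0884 in mature 40S. The mature values were all below the pre-40S ones, and 1 of them was under its untreated rate. A1147 fell by a log2 change of -1.32 (SE 0.238; edgeR adjusted p = 0.000584), and it remained past the threshold in each of the 28 alternatives that tested it. Its neighbour C1148, opposite G1629, fell short of the signal filter, with a mean reactivity of 0.882 ± 0.39 (SD, n = 5) against 0.0828 ± 0.16 (SD, n = 3). C1159, the fourth tested base of h28, had a log2 change of -0.72 (edgeR adjusted p = 0.0643), with reactivities that did not overlap. The bulged A1631, on the 3′ strand between U1630 and C1632, had 0.345 ± 0.11 in WT pre-40S and 0.161 ± 0.26 in mature 40S, with overlap.

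A1635 lies in the strand from h28 to h44. Its reactivity was 0.621, 1.39, 1.46, 1.54 and 1.23 in WT pre-40S, and 0.675, 0.214 and 0.238 in mature 40S. The groups overlapped through replicate 1 of each. A1635 fell by a log2 change of -1.26 (SE 0.201; edgeR adjusted p = 0.000257). In the same strand C1637, below the signal filter, went the other way in reactivity: its 5 pre-40S values ran from -0.0903 to 0.0604 and its mature values were 0.919, 0.756 and 0.586, with an adjusted p of 0.174 in the edgeR fit without the filter.

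C1639, which carries a ribose methylation in yeast, and C1640 open h44. C1639 had reactivities of 2.96, 2.30, 1.96, 1.77 and 1.77 in WT pre-40S, and of 0.586, 0.0968 and 0.109 in mature 40S. C1640 had 0.979, 0.861, 0.558, 0.595 and 0.546, and 0.179, -0.0255 and 0.177. At both the groups were fully apart. The log2 changes were -1.84 (SE 0.199; edgeR adjusted p = 7.28e-06) and -1.36 (SE 0.217; adjusted p = 0.000257). The authors' deposited table of accessibility lists C1639 at 0 in all 8 columns, so it gives no difference there (limma adjusted p = 1). Higher up the same helix, 9 further nucleotides were tested and 1 passed. That was A1655, with reactivities of 0.60 to 0.972 in WT pre-40S and 1.40, 1.33 and 1.21 in mature 40S, and a log2 change of 0.47 (SE 0.116; edgeR adjusted p = 0.00809), which was past the threshold in 21 of 29 alternatives. Those that ended the call included no library scale (adjusted p = 0.52), the scale by upper percentiles (0.204), the model with the untreated libraries (0.828) and limma on the authors' deposited table (0.227). The adenines of the decoding site, A1755 and A1756, lay below the signal filter. Their mean reactivity was 0.124 ± 0.57 and 0.499 ± 0.45 in WT pre-40S, and 0.293 ± 0.24 and 0.587 ± 0.14 in mature 40S, with overlap at both. A1762 and C1764, also below the signal filter, were lower in mature 40S without it. The log2 changes were -1.38 and -0.89 (edgeR adjusted p = 0.0137 and 0.0462), and -0.34 and 0.08 in untreated RNA. With the filter at 1.5 times the untreated rate, C1764 had an edgeR adjusted p of 0.00604. Reactivities overlapped at both, and the untreated rate of WT replicate 1 stood out. It was 7.98% and 2.97%, against 1.36% to 1.59% and 1.00% to 1.19% in the other WT replicates.

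**Figure D2:**
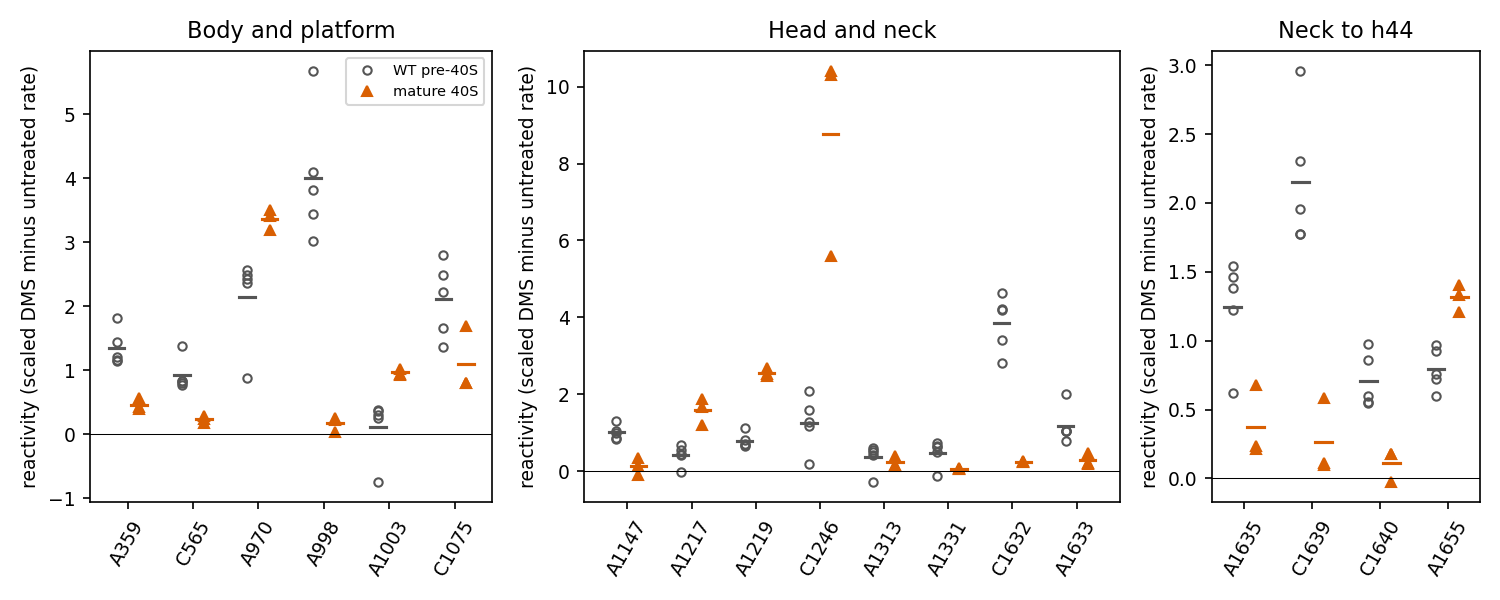
Reactivity (vertical axis, scaled DMS rate minus untreated rate, no unit) of the 18 called nucleotides in each replicate of WT pre-40S (open circles, n = 5) and mature 40S (triangles, n = 3), with group means as short lines. C1632, A998 and C1639 fall close to 0 in mature 40S, and C1246 rises from a mean of 1.26 to 8.77.

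The tip of h24 on the platform, which faces the mRNA channel beside the P site, held the deepest fall and a rise 5 bases apart. A998 had reactivities of 5.67, 3.81, 4.10, 3.44 and 3.02 in WT pre-40S, and of 0.214, 0.255 and 0.0316 in mature 40S. The lowest pre-40S value was far above the highest mature one. Its DMS rate was 4.17% ± 0.891 (SD, n = 5) against 0.544% ± 0.143 (SD, n = 3), while untreated RNA gave 0.412% and 0.368%. This is a log2 change of -3.06 (SE 0.215; edgeR adjusted p = 7.00e-08), and -2.77 within the first set.

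A1003, on the other side of the same loop, had reactivities of -0.747, 0.256, 0.292, 0.383 and 0.360 in WT pre-40S, and of 0.940, 1.02 and 0.927 in mature 40S. The mature values were higher than all pre-40S ones. A1003 rose by a log2 change of 1.19 (SE 0.123; edgeR adjusted p = 5.58e-06). The untreated rate of WT replicate 1 there was 1.01%, against 0.202% to 0.268% in the other 4 pre-40S replicates, and the model with the untreated libraries gave an adjusted p of 0.415. A993 and A1001, the other tested bases of h24, had log2 changes of -0.29 and 0.12 (adjusted p = 0.205 and 0.520).

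Elsewhere in the central domain the calls were smaller. C1075, at h26 on the platform near the mRNA exit, had reactivities of 2.80, 1.65, 2.22, 2.49 and 1.36 in WT pre-40S, and of 1.68, 0.801 and 0.805 in mature 40S. The groups overlapped. C1075 fell by a log2 change of -0.89 (SE 0.285; edgeR adjusted p = 0.0388), and it lost the threshold without WT replicate 2 (0.0681), WT replicate 3 (0.0797), mature 40S replicate 2 (0.155) or mature 40S replicate 3 (0.12), and became -1.44 (0.00364) without mature 40S replicate 1. It was also lost in the model with the untreated libraries (0.606) and in limma on the authors' deposited table (0.0719). A970, in the 3′ strand of h20, rose by a log2 change of 0.43 (SE 0.115; edgeR adjusted p = 0.0157), from reactivities of 0.883, 2.49, 2.36, 2.57 and 2.42 to 3.19, 3.41 and 3.51, and it passed in 14 of 29 alternatives, not in the model with the untreated libraries (0.912). The values did not overlap. A1139, in the strand from h27 to the neck, was the most reactive of the nucleotides shown here in both particles: its DMS rate was 24.8%, 18.3%, 21.7%, 30.0% and 24.1% in WT pre-40S and 26.2%, 36.0% and 31.9% in mature 40S. Its log2 change of 0.28 did not pass (edgeR adjusted p = 0.264). In h27 A1116 was the single tested base, with a log2 change of -0.65 (adjusted p = 0.398).

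The 5′ domain, which forms the body, gave 2 falls. C565 belongs to the loop of h18, the helix that lines the mRNA entry. It had reactivities of 1.38, 0.834, 0.830, 0.770 and 0.805 in WT pre-40S, and of 0.287, 0.174 and 0.231 in mature 40S. All mature values were below all pre-40S values, among which WT replicate 1 stood apart. C565 fell by a log2 change of -0.97 (SE 0.169; edgeR adjusted p = 0.000453), and without a library scale the adjusted p was 0.117.

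A359, in the part of the body between h4 and h15, had reactivities of 1.20, 1.16, 1.44, 1.81 and 1.14 in WT pre-40S, and of 0.429, 0.569 and 0.388 in mature 40S. The groups were again apart. A359 fell by a log2 change of -1.02 (SE 0.170; edgeR adjusted p = 0.000330), and without a library scale the adjusted p was 0.0775. In that part of the body 1 of 23 tested nucleotides was called, and in h21 with its expansion segment 0 of 11.

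The beak is the protrusion of the head formed by h33, where Enp1 and Ltv1 sit in pre-40S. C1246, in the loop at its tip, had reactivities of 0.190, 1.60, 1.27, 1.17 and 2.09 in WT pre-40S, and of 5.61, 10.3 and 10.4 in mature 40S. Each mature replicate was far above the pre-40S ones. The DMS rate went from 2.21% ± 0.89 (SD, n = 5) to 10.2% ± 4.77 (SD, n = 3), while untreated RNA gave 0.911% and 0.891%. DMS rates thus rose by a log2 change of 2.08 (SE 0.235; edgeR adjusted p = 9.41e-06), and 2.29 within the first set (adjusted p = 0.00184). When the signal filter was redone on that set 32 of 148 nucleotides passed (21.6%), and C1246 did not, with an adjusted p of 0.114.

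A1217 and A1219 lie between h32 and the beak, and both rose, 2 of the 2 tested there. A1219 had reactivities of 0.677, 1.11, 0.713, 0.811 and 0.665 in WT pre-40S, and of 2.46, 2.68 and 2.53 in mature 40S. A1217 had -0.0248, 0.668, 0.451, 0.421 and 0.555, and 1.20, 1.88 and 1.66. At both the mature values were all higher. The log2 changes were 1.11 (SE 0.148; edgeR adjusted p = 5.09e-05) and 0.52 (SE 0.161; adjusted p = 0.0318). In the untreated libraries these bases had log2 changes of -0.75 (A1219) and -0.95 (A1217), which did not pass (edgeR adjusted p = 0.424 and 0.407). A1217 lost the threshold without WT replicate 3, 4 or 5 or without mature 40S replicate 2 or 3 (adjusted p from 0.0629 to 0.263). In h33 itself A1226 and A1227 had log2 changes of 0.39 and -0.02 (adjusted p = 0.439 and 0.932).

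On the other side of the head, 2 adenines near the junction of h34, h35 and h38 fell. A1331, in the strand from h35 to h38, had reactivities of -0.121, 0.621, 0.646, 0.726 and 0.488 in WT pre-40S, and of 0.0542, 0.0891 and 0.0534 in mature 40S. A1313, in the part from h35 to h37, had -0.281, 0.596, 0.411, 0.545 and 0.510, and 0.393, 0.126 and 0.157. At A1331 WT replicate 1 alone lay below the mature values, and at A1313 it lay below them too, while WT replicates 2 to 5 were above. The log2 changes were -2.51 (SE 0.364; edgeR adjusted p = 0.000113) and -1.22 (SE 0.346; adjusted p = 0.0203). The model with the untreated libraries gave an adjusted p of 0.715 at A1331, and at A1313 a log2 change of 0.30 (adjusted p = 0.912), with the sign turned. The untreated rates in WT replicate 1 were 0.661% and 0.765% at these bases, above those of the other replicates. A1329, the neighbour in the same strand, had a log2 change of -0.36 (adjusted p = 0.205), and A1421 in h34 had -0.53 (adjusted p = 0.128).

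No nucleotide of h29, h30, h31 or h43 passed the signal filter. A1600, in the loop of h43, had reactivities of 0.779, 0.957, 0.768, 1.06 and 0.955 in WT pre-40S, and of 0.433, 0.221 and 0.0612 in mature 40S, without overlap. Its log2 change was -0.76 without the filter (edgeR adjusted p = 0.105), and -0.77 with the filter at 1.5 times the untreated rate (adjusted p = 0.00137).

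Without the signal filter 31 of 776 nucleotides differed (3.99%), and 13 of the 18 calls were among them. Of the 18 that were added, 6 were in h31 and 2 in the strand after it. The rest were 3 in h23, 2 each in h32 and h44, and 1 each in h33, h39 and the part from h4 to h15. In untreated RNA 16 of the 18 changed in the same direction. C931 of h23 did not, and rose by a log2 change of 1.21 (edgeR adjusted p = 0.00922) against -1.31 untreated. Its reactivities did not overlap, at -1.48 (WT replicate 1) to 0.227 in WT pre-40S and 0.822 to 0.921 in mature 40S. Of the 8 nucleotides of h31 and the strand after it, 7 were lower in mature 40S, and A1183 was higher, with a log2 change of 1.43. The h31 loop lines the P site and holds U1191, whose modification differs between the particles as shown above. At C1195 the DMS rate was 1.06%, 0.669%, 1.04%, 1.23% and 1.18% in WT pre-40S and 0.227%, 0.0666% and 0.182% in mature 40S. The untreated rate there was 1.43%, 0.507%, 0.837%, 0.534% and 0.443%, and 0.187%, 0.0883% and 0.0341%. In both kinds of library the mature values lay below all pre-40S values. The log2 change with DMS was -2.75 (edgeR adjusted p = 0.00241) and that in untreated RNA -2.37 (adjusted p = 0.176), and the mean reactivities, 0.214 ± 0.44 and 0.060 ± 0.083, came from groups that overlapped. All 8 nucleotides of h31 and the strand after it had log2 changes of the same sign in the untreated libraries, from -2.37 to 1.47 on the log2 scale, and 5 of the 8 had an unadjusted p under 0.05 there. A1204 was the one whose reactivities did not overlap, at 0.0615 to 0.551 in WT pre-40S and -0.0719 to -0.0253 in mature 40S, with an untreated log2 change of -0.76 (edgeR adjusted p = 0.477). Its untreated rates were apart too, at 0.375% to 0.678% in WT pre-40S and 0.134% to 0.346% in mature 40S. The part of the U1191 modification in these values was not tested.

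**Figure D3:**
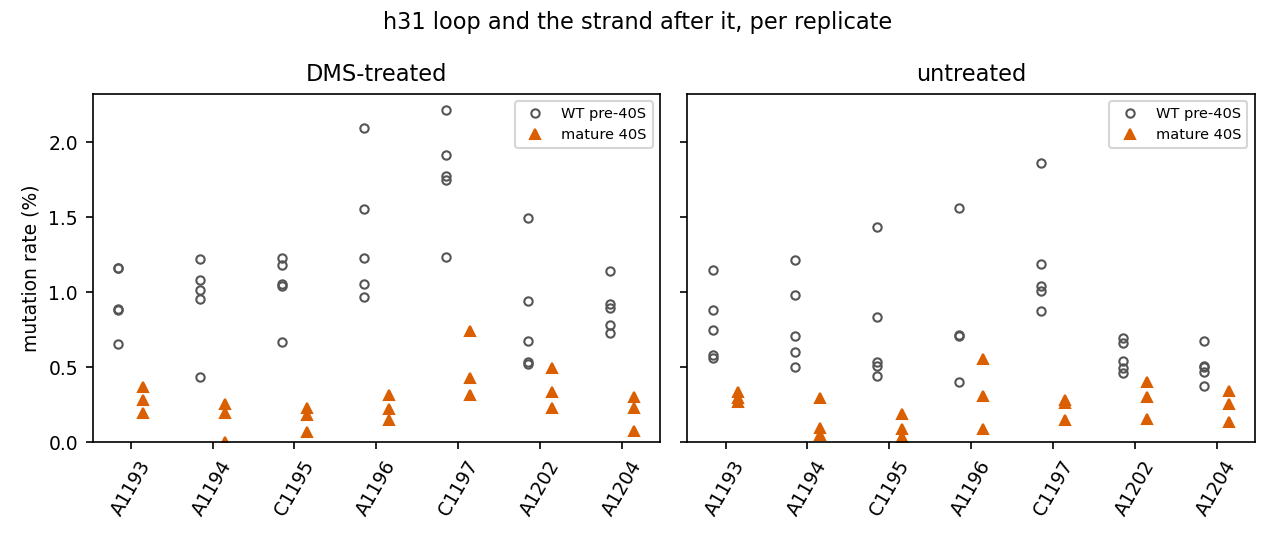
Mutation rate in percent (vertical axis) at 7 nucleotides of the h31 loop and the strand after it, in DMS-treated (left) and untreated libraries (right) of each replicate of WT pre-40S (circles, n = 5) and mature 40S (triangles, n = 3). At every base shown but A1196 the mature values lie below all WT pre-40S values in both kinds of library, and at A1196 the untreated values overlap. A1183, the base of h31 that was higher in mature 40S, is not shown.

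At the 92 tested nucleotides the untreated libraries alone gave 0 calls in edgeR, with 8 at an unadjusted p under 0.05, of which 2 were among the 18 calls (A1217 and A1219). Of the 18 calls, 11 passed in the model that fits treated and untreated libraries together. Replicates 1 to 3 of both groups, fitted with the replicate number as a block, gave 23 of 92 (25%), against 14 for the same libraries without the block. A970 and A1217 each had an adjusted p of 0.0522 with the block.

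By domain, the mean reactivity of the tested nucleotides was 1.01 ± 0.205 in the head of WT pre-40S (SD, n = 5) and 1.33 ± 0.0826 in mature 40S (SD, n = 3), without overlap. The head again includes h28. The head's difference of 0.32 became -0.03 when the median over nucleotides took the place of the mean. The head's mean includes C1246, the largest rise, while the median log2 change of its 21 tested nucleotides was -0.27. In the central domain the means were 1.88 ± 0.142 and 2.12 ± 0.0815, also apart, and the difference of 0.243 was 0.0398 with each library scaled by its own upper percentiles. The 5′ domain had 1.03 ± 0.182 and 1.25 ± 0.0482, and the 3′ minor domain 1.65 ± 0.112 and 1.65 ± 0.167, both with overlap.

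**Figure D4:**
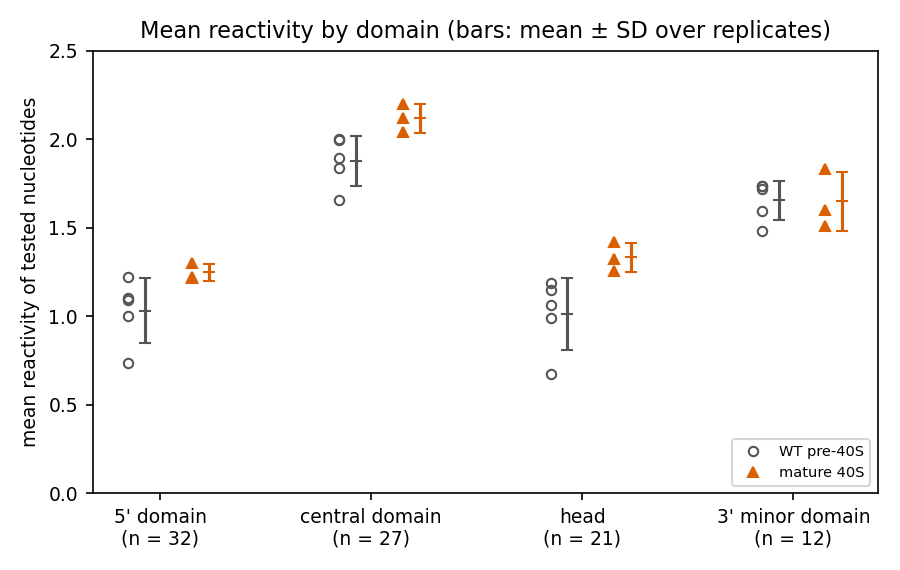
Mean reactivity (vertical axis, no unit) of the tested nucleotides of each domain in every replicate of WT pre-40S (circles, n = 5) and mature 40S (triangles, n = 3), with mean ± SD as bars. The groups are apart in the head (counted with h28), whose mean includes the large rise of C1246, and in the central domain. They overlap in the 5′ and 3′ minor domains.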

How the data were processed

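The deposited profiles give, per nucleotide and library, the count of mutations and the effective depth, per the file headers, and the mutation rate, a fraction, which the authors computed from them. The aligner, the mutation counter and the build are not given in the sources used here. A deposited table of normalized accessibility signal, with its method not given, served as an alternative; 7 of its columns and the libraries of the other particles were not used. Mutation counts were tested with edgeR 4.0.16 (quasi-likelihood, robust) in R 4.3.3, with effective depth times a library scale (median of rate ratios) as offset and Benjamini-Hochberg adjustment at 0.05 over all tested nucleotides. limma 3.58.1 and DESeq2 1.42.0 were alternatives. Single values were compared with scipy 1.17.1, and figures drawn with matplotlib 3.10.9. The fit was tested on simulated counts with a common dispersion and no library sets. How it behaves with such sets was not tested.

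The constant behind reactivity is the average of DMS minus untreated rates that lie from the 90th to the 98th percentile of the 776 members, taken per library and then over libraries (0.967%). The nucleotides behind that constant had not been set beforehand: the 92 tested ones were used first, and the 776 were taken after the results of both were known. The constant cancels from all count fits and from every overlap of groups, but it moves the limma fits, for which both versions are reported.

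Nucleotides were named where called, or where they belong to listed functional sites. Members and lists were chosen with earlier results of these data known. Helices were assigned by homology, and 102 of 102 pairs of the 20 stems checked were complementary. The deviations of same-numbered replicates from their group means correlated at 0.325, 0.124 and 0.204, each over 0.1. The replicate number entered only as a block in an alternative fit, and the main fit left the samples unpaired. The labels name no shared batch, WT replicate 2 correlated more with mature 40S replicate 3 (0.279) than with replicate 2, and the untreated profiles set mature 40S replicates 2 and 3 beside WT replicates 4 and 5. Deposited rates and counts cover reads without molecular identifiers.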

Additional observations from a re-analysis of the deposited data

Results flagged for a closer look

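In 6 of the 19 measures examined over the 5 WT pre-40S replicates, 1 replicate lay far from the other 4, and in all 6 it was WT replicate 1. Chance flags about 1 in 20 groups of independent normal values. The 19 measures share the same 5 replicates, so their flags cannot be counted as separate events. The replicate was low in reactivity at A970 (0.883, against 2.36 to 2.57 in the others), at A1003 (-0.747, against 0.256 to 0.383), at A1313 (-0.281, against 0.411 to 0.596) and at A1331 (-0.121, against 0.488 to 0.726). It was high at C565 (1.38, against 0.770 to 0.834) and at A1633 (2.0, against 0.794 to 1.05). All 6 nucleotides were also called without that replicate, among the 92 nucleotides chosen with it.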

How the results depend on the processing

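The 18 called nucleotides became 31 with no filter on signal, 10 with the filter at 3 times the untreated rate (48 tested), 11 with no library scale (without A359, C565, A970, C1075, A1217, A1633 and A1655), 32 when the filter was redone on WT replicates 4 and 5 with mature 40S replicates 2 and 3, and 0 in the untreated libraries alone. Leaving out 1 replicate gave 14 (without mature 40S replicate 3) to 24 (without WT replicate 1). Scaling by the 90th to 98th percentile gave 21 calls, 3 higher and 18 lower, against 6 and 12, with a median log2 change over the 92 of -0.11 in place of 0.06. The other alternatives gave 12 to 25, among them limma at a pseudocount of 0.1, with 12 calls, or 17 with the constant from the tested nucleotides, and at 0.5, with 17 or 19. That second constant, the paired interaction, the fit of replicates 1 to 3 without a block and the extra fits of the untreated libraries were chosen after seeing the data. The replicate block gave 23 calls and ended those at A970 and A1217, and no other. Of 18 nucleotides, 6 were past the threshold in every alternative that tested them. A1313 turned to 0.30 in the interaction with the untreated libraries and 0.0839 in its paired form. Without 1 library the calls lost were C1075, A1217, A970 (without WT replicate 4 or mature 40S replicate 1 or 3) and A1313 (without mature 40S replicate 2 or 3). The untreated libraries gave 1 call in the first library set, or 18 over all members there, and 0 to 1 without 1 replicate, the 1 without WT replicate 1. The ITS1 difference ran from -0.634 to -0.525 without 1 replicate, with exact p of 0.0571 or 0.0952, the smallest those sizes allow. The percentile scale of each library, also chosen after seeing the data, moved the central domain's difference to 0.0398 and the 3′ minor domain's from -0.00532 to -0.174, and the median moved the head's to -0.0316. Reactivities with the library scale but without the common constant would differ from those given by that constant only, and were not run. Except where stated, the cause was not tested. At A998 and C1632 mature 40S held 47 to 107 mutations per DMS library; whether depth limits these values was not tested.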
